A study of Homo sapiens with 11 samples.

Results

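The metalloproteases of the MMP, ADAM and ADAMTS families, the ADAMTS-like (ADAMTSL) proteins and the TIMP inhibitors were described on expression arrays of 2 lung adenocarcinoma cell lines, A549 and HCC827. Members were the genes whose symbol is MMP, ADAM, ADAMTS or ADAMTSL followed by a number and at most 1 letter, or TIMP1 to TIMP4. RefSeq lists 79 such symbols, and 73 of them were named on the arrays through 103 probes, among 20249 named genes in all. They comprised 23 MMP, 22 ADAM, 19 ADAMTS and 5 ADAMTSL genes and all 4 TIMP genes. ADAM1A, ADAM1B, ADAM3B, ADAM24P, ADAM28 and MMP23A were not matched to a probe and were not analysed here. ADAM3A, ADAM5 and ADAM6 are pseudogenes in RefSeq. A further 23 symbols of antisense, readthrough or numbered pseudogene transcripts were left out, of which ADAMTS7P1 and MMP25-AS1 had probes.

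Cells had been infected with a retrovirus that carried either the empty vector (mock) or wild-type TRIM58, a ubiquitin ligase, with a FLAG tag (TRIM58-WT), and all of them had been selected for the vector's drug resistance. A549 transfectants were isolated clones and HCC827 transfectants were uncloned pools. The labels give 3 A549 mock replicates on 4 arrays, 3 A549 TRIM58-WT replicates, 2 HCC827 mock replicates and 2 HCC827 TRIM58-WT replicates. A549 mock arrays 1-1 and 1-2 carry the same control cell in their labels and were averaged to 1 replicate. Nothing states that replicates were separate infections, so p-values measure the spread between these samples only.

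MMPs are zinc proteases that are made as inactive precursors and cut collagens, laminins, other matrix proteins and growth factor precursors, either after secretion or at the cell surface. ADAMs are mostly membrane proteases that release the outer part of surface proteins such as EGF receptor ligands, although several ADAMs lack an active site. ADAMTS proteases are secreted and cut proteoglycans and procollagens, ADAMTSL proteins share their binding domains but not the protease, and TIMPs block the active site of MMPs and of some ADAM and ADAMTS proteases. In lung adenocarcinoma these families are known for their part in invasion and in the shedding of growth factors.

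Each level below is the log2 signal of the brightest probe of a gene relative to the 75th percentile of its array. Levels of different probes are not set against each other. A probe counted as well above background if the scanner software marked over 0.5 of its spots as such. Only probes that met this on all arrays of 1 or more of the groups compared entered the limma fit, and a probe was called at a Benjamini-Hochberg adjusted p under 0.05, over all probes tested, with a change of at least 2-fold.

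Several arrays stood apart from their group. The SD of the log2 difference over 13910 probes was 0.243 between A549 mock arrays 1-1 and 1-2, 0.194 between A549 TRIM58-WT replicates 2 and 3, between 0.589 and 0.692 for A549 mock replicate 3 against the other A549 mock arrays, and 0.738 and 0.708 for A549 TRIM58-WT replicate 1 against replicates 2 and 3. TRIM58-WT replicates 2 and 3, on the same slide, differed by less than the 2 arrays of the same control cell, which lay on different slides. The TRIM58 probe was well above background only on A549 mock replicate 3, at -0.71, and lay between -5.64 and -4.63 on the other 10 arrays, those labelled TRIM58-WT included. Whether it lies in the cloned coding sequence is not given in the sources used here, so it does not settle the labels, and the groups below are those of the labels. The study's methods state that the isolated clones were checked for TRIM58 protein on western blots. The arrays lay on 2 slides, with A549 mock 1-1, mock 2, TRIM58-WT 1 and all HCC827 arrays on slide 1 and A549 mock 1-2, mock 3 and TRIM58-WT 2 and 3 on slide 2. Of 10 epithelial markers, 4 to 10 were well above background on an array, and none of the 5 endothelial markers was on any.

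Members were quieter than genes at large. On all 11 arrays, 11 members (15.1%) were well above background, against 47.2% of all named genes, and 37 members (50.7%) were so on no array, against 27.3% of all genes. The members well above background on all arrays were MMP7, MMP15, MMP24, ADAM10, ADAM15, ADAM17, ADAMTS7, ADAMTS9, ADAMTSL5, TIMP1 and TIMP2. By family, none of the arrays carried a signal well above background for 11 of 23 MMP, 11 of 22 ADAM, 12 of 19 ADAMTS and 2 of 5 ADAMTSL genes and for TIMP3, a TIMP that binds to the matrix. Among these genes were the stromelysins MMP3, MMP10 and MMP11, the collagenases MMP8 and MMP13, the elastase MMP12, and ADAMTS4 and ADAMTS5, the main aggrecanases. For ADAMTS1, ADAMTS6 and ADAMTSL1 another probe was well above background on 1 array, which left 34 members with no such probe on any array.

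The remaining members were measured on some arrays only. Of the members, 10 were well above background on A549 arrays alone, among them ADAM12, ADAMTS8, ADAMTS10 and ADAM23. MMP1, MMP25, ADAM22 and ADAMTS16 were so on HCC827 arrays alone. A549 had more arrays than HCC827, and the share of all genes seen in only 1 line was not computed. On a single array 7 members (9.59%) reached this mark, against 5.56% of all genes. Of these, 5 did so on A549 TRIM58-WT replicate 1, namely MMP2, MMP14, MMP21, ADAM3A and ADAM30. That array had 49.99% of all probes well above background, and the other 10 had 40.07% to 46.52%. MMP2, the gelatinase activated by MMP14 at the cell surface, was at -1.91 on TRIM58-WT replicate 1. It was at -2.28 and -2.24 on TRIM58-WT replicates 2 and 3, where it was not well above background. MMP14 was at -2.08 on TRIM58-WT replicate 1 and between -5.08 and -3.71 on the other 10 arrays. Neither gene passed the filter for a test in any comparison. With no filter on dim probes, the A549 log2 difference was 2.10 ± 0.35 for MMP2, which was then called (limma, adjusted p = 0.0477), and 1.44 ± 0.49 for MMP14 (limma, adjusted p = 0.270).

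**Figure D1:**
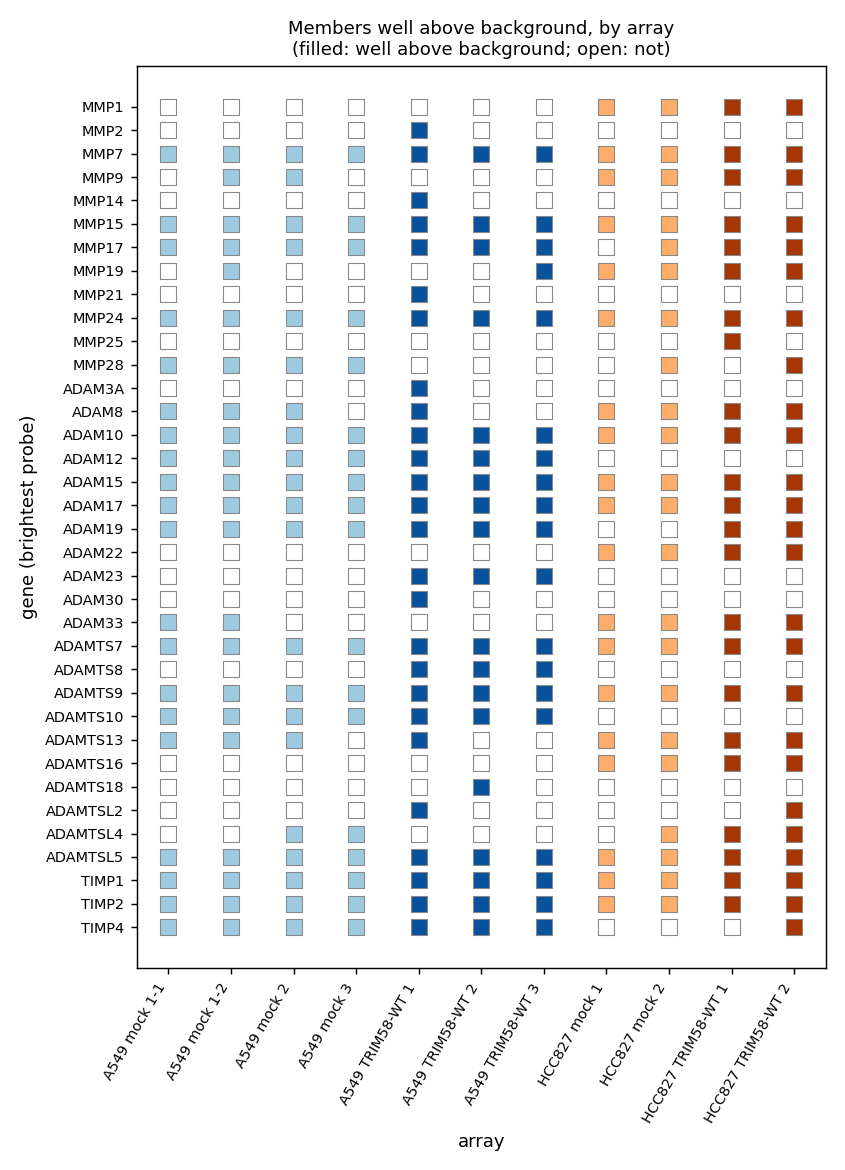
Each row is a member that was well above background on at least 1 array (36 of 73), and each column is 1 of the 11 arrays. A filled square marks a signal well above background in the colour of the array's group, and an open square marks one that was not. TRIM58-WT replicate 1 of A549 has the most filled squares, 26, and also the largest share of all probes well above background, 49.99%.

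In A549, MMP7 was lower and TIMP2 and ADAMTS8 were higher on arrays labelled TRIM58-WT than on mock arrays. Of the 73 members 19 could be tested and these 3 were called. Among all 11181 genes tested 7.94% were called, 3.89% higher and 4.05% lower. The median log2 difference was 0.38 over the 19 members and 0.03 over all genes. Members whose replicates did not overlap between the groups numbered 9 of 19, against 33.9% of all genes.

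MMP7, or matrilysin, is a small secreted MMP made by epithelial cells, which releases surface proteins and cuts matrix proteins. Its level was 5.02 and 5.06 on A549 mock arrays 1-1 and 1-2, 5.16 on mock replicate 2 and 3.38 on mock replicate 3. On TRIM58-WT replicates 1, 2 and 3 it was 1.29, -1.70 and -1.86. Every TRIM58-WT array lay below every mock array, with the third mock replicate lowest of its group and the first TRIM58-WT replicate highest. The log2 difference was -5.28 ± 0.93 (SE), 38.9-fold lower (limma, adjusted p = 0.0231). Within slide 1 it was -3.80 and within slide 2 -6.00. In such bulk samples fewer cells with a transcript cannot be told apart from less of it per cell.

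MMP7 is 1 of 9 MMP genes that follow each other on chromosome 11 in RefSeq, in the order MMP7, MMP20, MMP27, MMP8, MMP10, MMP1, MMP3, MMP12 and MMP13, with no other protein-coding gene between them. Only MMP7 of the 9 was well above background on any A549 array, and MMP1 was the only other one on HCC827 arrays. The upstream sequences of MMP7, MMP10 and MMP20 are shown because these neighbours share a pair of short motifs, and of the 3 only MMP7 was well above background on any array. They are the 120 bases before the RefSeq start, from RefSeq on GRCh38.p14, all on the minus strand, at chr11:102530748-102530867 for MMP7, chr11:102780629-102780748 for MMP10 and chr11:102625333-102625452 for MMP20. Capitals mark TGANTCA, a loose form of the AP-1 motif in which N is any base, and TATAAA, the TATA box. MMP7 has TGAGTCA, while MMP10 and MMP20 have TGAATCA, so the 3 share the first motif only in this loose form. Binding by AP-1 was not tested.
MMP7: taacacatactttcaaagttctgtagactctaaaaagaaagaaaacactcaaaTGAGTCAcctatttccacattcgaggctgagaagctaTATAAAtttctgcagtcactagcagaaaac
MMP10: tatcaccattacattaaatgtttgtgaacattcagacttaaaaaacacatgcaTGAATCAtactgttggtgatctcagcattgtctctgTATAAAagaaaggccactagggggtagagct
MMP20: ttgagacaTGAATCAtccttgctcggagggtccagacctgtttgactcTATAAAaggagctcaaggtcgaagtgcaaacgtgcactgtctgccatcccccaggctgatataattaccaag
Counted back from the start, the first motif began at base -67 in MMP7, -67 in MMP10 and -112 in MMP20, and the second at -30, -31 and -72. Both strands were searched over the whole promoter windows of the table. TGANTCA was in 7.76% of all 27305 promoters and in 4 of the 44 members that have one there, and TATAAA in 12.0% of all promoters and in 9 members. Both were in 1.35% of all promoters and in 3 members, those shown. The remaining members, among them MMP2, MMP9 and MMP1 of this cluster, had no promoter there and were not searched. MMP10, another stromelysin, lay between -5.69 and -4.65 on the 11 arrays and was well above background on none.

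TIMP2, an inhibitor that also helps MMP14 to activate MMP2, was at 4.60, 4.68, 4.77 and 5.07 on A549 mock arrays 1-1, 1-2, 2 and 3. It was at 5.72, 6.68 and 6.74 on TRIM58-WT replicates 1, 2 and 3, so the groups did not overlap. The log2 difference was 1.55 ± 0.31 (SE), 2.94-fold higher (limma, adjusted p = 0.0327), and was 1.04 within slide 1 and 1.83 within slide 2. When each array was shifted by its median in place of its 75th percentile, it was 1.18 with an adjusted p of 0.184. That shift moved the median of all genes to -0.34, and the share of all called probes that were higher from 50.5% to 25.6%.

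Of the other inhibitors, TIMP1 lay between 4.19 and 4.58 on all A549 arrays with groups that overlapped (log2 difference 0.17 ± 0.16, limma adjusted p = 0.564). TIMP4, a TIMP of few tissues, was between 2.08 and 2.30 on mock arrays and at 2.02, 1.35 and 1.49 on TRIM58-WT replicates 1, 2 and 3. Its log2 difference of -0.52 ± 0.21 did not pass the test (limma, adjusted p = 0.198).

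ADAMTS8, a secreted ADAMTS protease known for blocking vessel growth, stayed below that mark on all A549 mock arrays, at -4.86, -4.04, -4.95 and -2.73. On TRIM58-WT replicates 1, 2 and 3 it was well above background at -1.03, -1.93 and -1.64. The measured means were -1.53 and -4.04, and against the lowest signals well above background on the mock arrays it was at least 2.56-fold higher (limma on the measured values, adjusted p = 0.0498). The probe entered the test only through the TRIM58-WT arrays, where it is high, as did ADAM23 below. Every gene given below with an "at least" fold likewise entered its test only through the group in which it was higher. Within slide 1 the log2 difference was 3.88 and within slide 2 1.60, and with normexp background correction it was 0.49 (limma, adjusted p = 0.130).

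A pair of ADAM genes showed the same order of groups without being called. ADAM19, a sheddase of neuregulin, was at -0.91, -1.04, -0.50 and 1.50 on mock arrays 1-1, 1-2, 2 and 3 and at 1.70, 2.24 and 2.30 on TRIM58-WT replicates 1, 2 and 3. Mock replicate 3 lay next to the TRIM58-WT arrays, and the log2 difference of 2.07 ± 0.63 had an adjusted p of 0.0991 (limma). ADAM23, an ADAM with no active site that binds integrins, stayed below the mark on all mock arrays, between -3.47 and -2.14, and was at -0.71, -1.62 and -1.54 on TRIM58-WT arrays (limma, adjusted p = 0.0622).

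The main sheddases were not called. ADAM10, which cuts NOTCH receptors and cadherins, was between 1.29 and 1.74 on A549 mock arrays and between 0.83 and 1.04 on TRIM58-WT arrays, a log2 difference of -0.62 ± 0.18 (limma, adjusted p = 0.0879). A second ADAM10 probe gave -0.77 with an adjusted p of 0.0929. ADAM17, which releases TNF and EGF receptor ligands, gave -0.28 ± 0.24 (limma, adjusted p = 0.536). MMP15, a membrane MMP, passed the adjusted p without reaching 2-fold. MMP9, a gelatinase, was well above background only on mock arrays 1-2 and 2 in A549 and was not tested there.

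ADAM8 and ADAMTS13 split the A549 arrays across their labels. ADAM8, a sheddase of leukocytes and tumour cells, was at 1.06, 0.92 and 1.35 on mock arrays 1-1, 1-2 and 2 and at 1.39 on TRIM58-WT replicate 1, but at -2.01 on mock replicate 3 and at -2.15 and -2.17 on TRIM58-WT replicates 2 and 3. ADAMTS13, the protease of von Willebrand factor, was between -1.84 and -0.43 on the former 4 arrays and between -4.33 and -4.31 on the latter 3. On these 3 arrays neither gene was well above background, and neither was tested in A549.

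The A549 calls rested on which replicates were in the fit. Without mock replicate 1, mock replicate 2, TRIM58-WT replicate 2 or TRIM58-WT replicate 3, limma called 0 members, with 7 at an unadjusted p under 0.05 in each case. Without mock replicate 3 it called 5, ADAM19 and ADAM23 added to MMP7, TIMP2 and ADAMTS8, and without TRIM58-WT replicate 1 it called MMP7 and TIMP2. Calls over all probes moved in the same fits, from 6.92% with all replicates to 1.74%, 2.11%, 2.15% and 1.82% in the first 4. The shares were 12.1% and 8.53% when mock replicate 3 or TRIM58-WT replicate 1 was the one left out. With both of the latter left out, an alternative chosen after the data were seen, 9 of 21 members were called, ADAM8, ADAMTS13, ADAMTS7 and MMP17 among them, beside 25.5% of all probes. When TRIM58-WT arrays 2 and 3 were merged into a single mean, also chosen later, 0 were called and 7 had an unadjusted p under 0.05, beside 1.99% of all probes called. The log2 difference kept its sign in every one of these fits, from -6.31 to -4.73 for MMP7, from 1.37 to 1.88 for TIMP2 and from 2.06 to 3.17 for ADAMTS8 over the fits without 1 replicate.

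**Figure D2:**
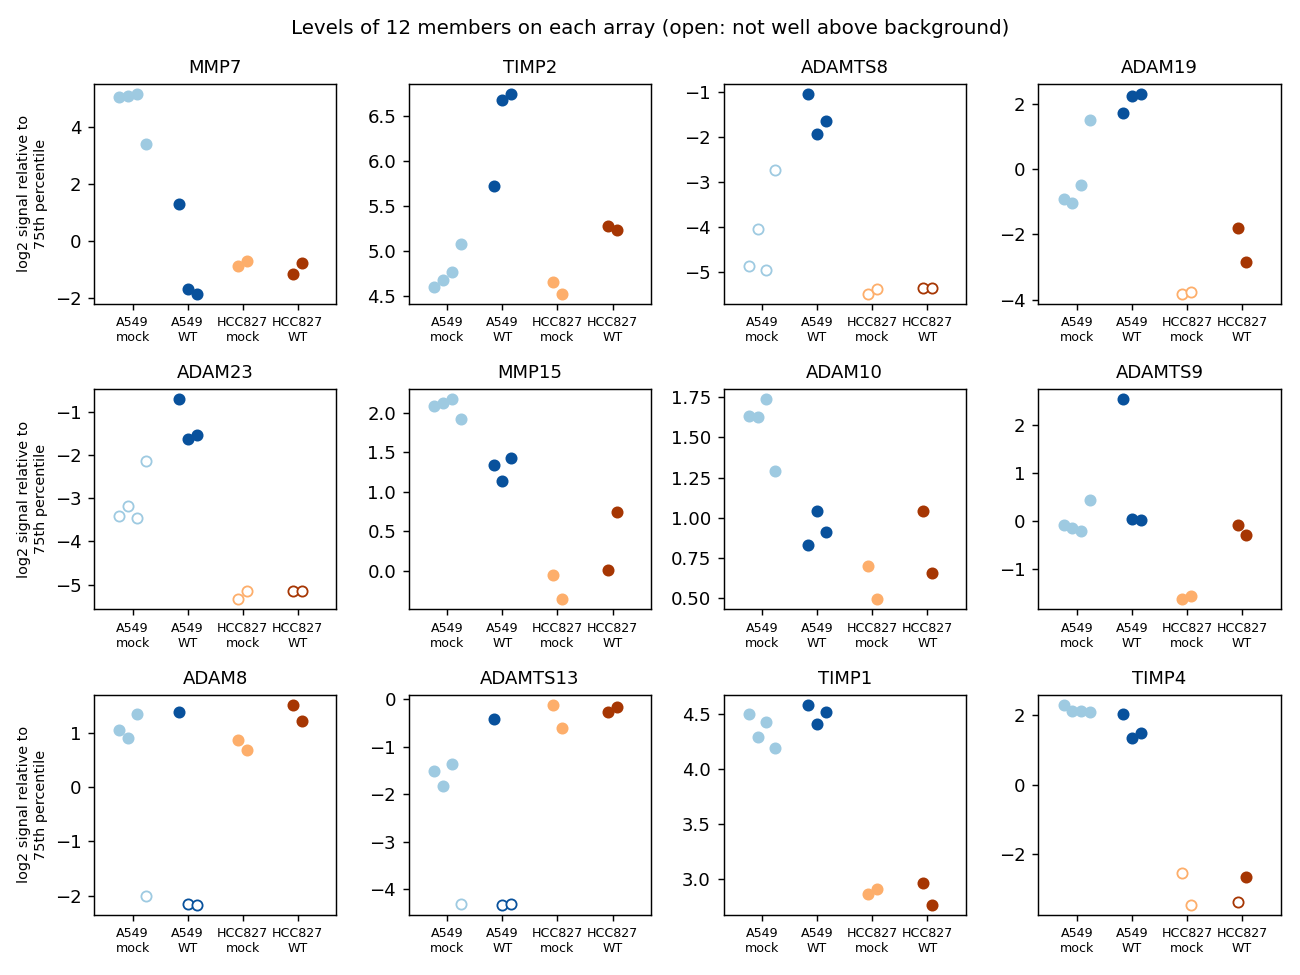
Levels of 12 members, as log2 signal relative to the 75th percentile of the array, with 1 point per array and the arrays of a group side by side in replicate order. Filled points are well above background and open points are not. MMP7 is below every A549 mock array on all 3 A549 TRIM58-WT arrays, and ADAM8 and ADAMTS13 show mock replicate 3 beside TRIM58-WT replicates 2 and 3.

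**Figure D3:**
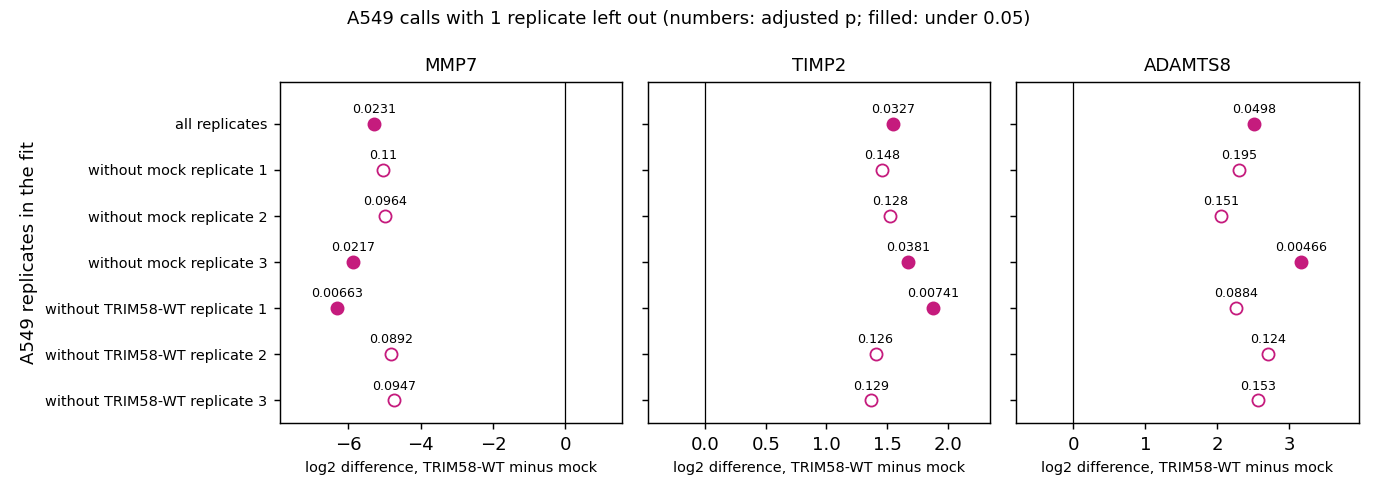
Log2 difference of the 3 members called in A549, TRIM58-WT minus mock, with all replicates and with each replicate left out in turn. Filled points have an adjusted p under 0.05 (the number beside the point), and the differences stay on the same side of 0 in every fit.

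In HCC827, ADAMTS9 was the 1 member called among 22 tested, and it was higher on arrays labelled TRIM58-WT. Among all 12191 genes tested 1.07% were called, 0.328% higher and 0.746% lower. The median log2 difference was 0.33 over the 22 members and 0.01 over all genes, and 16 of the 22 were above 0. Members whose replicates did not overlap numbered 11 of 22, against 59.1% of all genes.

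ADAMTS9, a secreted protease that cuts versican, was at -1.64 and -1.57 on HCC827 mock replicates 1 and 2 and at -0.09 and -0.29 on TRIM58-WT replicates 1 and 2. The groups did not overlap, and the log2 difference was 1.42 ± 0.14 (SE), 2.67-fold higher (limma, adjusted p = 0.0479). Its call was lost with any 1 of the 4 replicates left out, but such fits leave 1 replicate in a group. With the replicate number as a block its adjusted p was 0.112 (limma), in a fit where no probe of any gene was called. With normexp background correction the log2 difference was 0.76 (limma, adjusted p = 0.0621). In A549 the gene was at 2.55 on TRIM58-WT replicate 1 and between -0.21 and 0.44 on the other 6 arrays (log2 difference 0.83 ± 0.70, limma adjusted p = 0.515).

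TIMP2 in HCC827 was at 4.66 and 4.53 on mock arrays and at 5.28 and 5.24 on TRIM58-WT arrays, a log2 difference of 0.67 ± 0.13 (limma, adjusted p = 0.110). ADAM19 was not well above background on the mock arrays, at -3.82 and -3.76, and entered the test only through the TRIM58-WT replicates, at -1.81 and -2.86 (limma, adjusted p = 0.152). MMP7 lay between -1.16 and -0.69 on all 4 HCC827 arrays (log2 difference -0.19 ± 0.19, limma adjusted p = 0.589). The log2 differences of the other genes followed throughout were -0.02 ± 0.14 for TIMP1, 0.25 ± 0.19 for ADAM10, -0.06 ± 0.13 for ADAM17 and -0.14 ± 0.33 for MMP9 (limma, adjusted p between 0.489 and 0.941). TIMP4 was well above background on TRIM58-WT replicate 2 alone and was not tested.

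**Figure D4:**
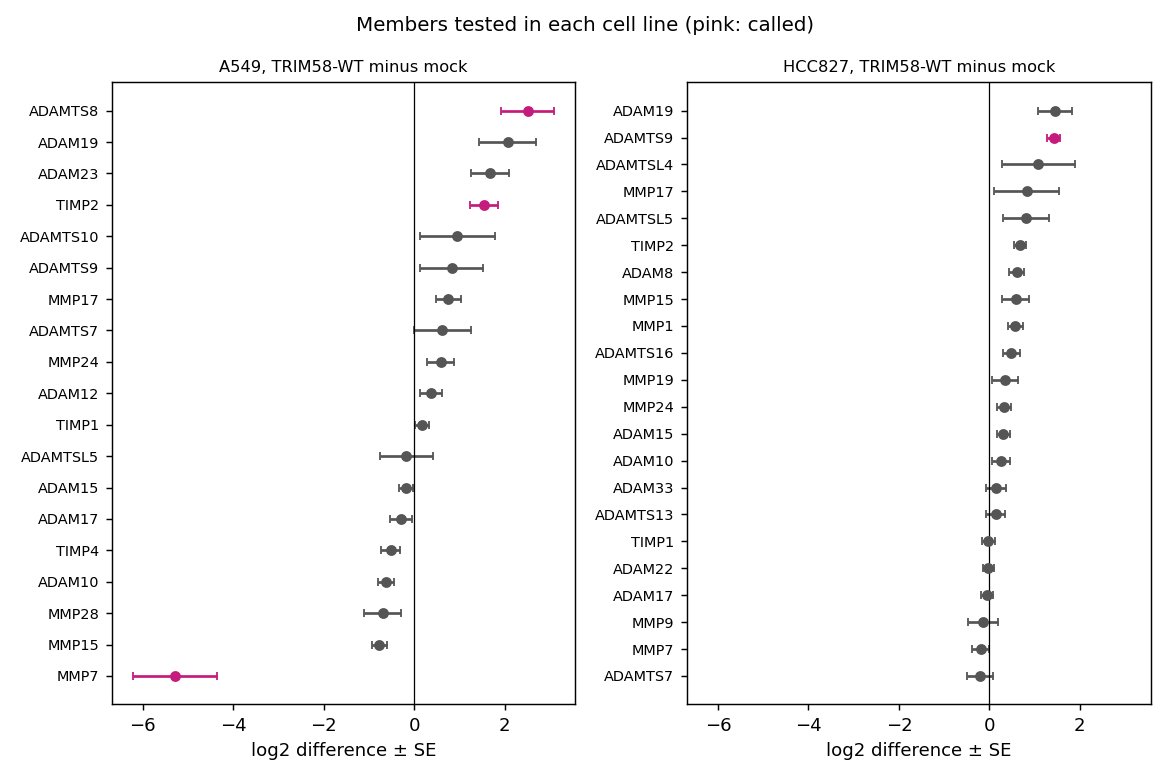
Log2 difference between TRIM58-WT and mock for the members tested, 19 in A549 and 22 in HCC827, with the SE from limma as the bar. Pink points were called. MMP7, at -5.28 in A549, lies far from the other members in size, while in HCC827 it lies at -0.19.

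The change in A549 was set against that in HCC827 by a contrast of all replicates of both lines, called at the adjusted p alone. Of 28 members tested, limma called 0, against 4.61% of all genes, and 5 had an unadjusted p under 0.05. By limma, the A549 change minus the HCC827 change was -5.10 ± 1.31 for MMP7 (adjusted p = 0.0756), -1.35 ± 0.34 for MMP15 (0.0693), -0.88 ± 0.28 for ADAM10 (0.141), 2.43 ± 0.82 for ADAMTS8 (0.153) and 1.59 ± 0.59 for ADAM23 (0.197). ADAMTS8 and ADAM23 entered this contrast only through A549 TRIM58-WT, where they are high. Neither was well above background on any HCC827 array, so their HCC827 change is between signals near background. MMP7 and MMP15 were called when slide was a block, in a fit that also took A549 mock arrays 1-1 and 1-2 as separate replicates. Without A549 mock replicate 3, 4 members were called, without A549 TRIM58-WT replicate 1, 3 were, without HCC827 TRIM58-WT replicate 1, 1 was, and without both A549 arrays 14 were. Of all probes, 3.86% were called with all replicates, and 10.5%, 7.17%, 1.92% and 37.1% in these fits, against 8.18% with slide as a block.

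The mock cells of the lines differed in 13 of 25 members tested, 10 higher in A549 and 3 higher in HCC827. Of all 12394 genes tested 31.9% were called, 15.4% higher in A549 and 16.5% lower. The median log2 difference was 0.95 over the members and -0.06 over all genes. These are the same mock arrays as in the comparisons above, so the values are not independent of them. Members given with an "at least" fold, and MMP9 and MMP17 as well, entered this test only through the mock cells of the line in which they were higher.

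Among MMPs, MMP7 was 39.7-fold higher in A549 mock than in HCC827 mock cells, where it was at -0.87 and -0.69 (log2 difference 5.31 ± 0.58, limma adjusted p = 0.00182). MMP15 was 4.84-fold higher in A549, at 1.92 to 2.17 against -0.06 and -0.36. MMP17, a membrane MMP anchored by a lipid, was 6.19-fold higher, at 0.47 to 1.41 in A549 and at -2.74 and -0.66 in HCC827, where the first array was not well above background. Without that array its log2 difference was 1.59 in place of 2.63 (limma, adjusted p = 0.0710), and without A549 mock replicate 1 or 2 the adjusted p was 0.0601 or 0.0551. The other MMPs called were higher in HCC827. MMP9 was at -0.49 and -0.79 in HCC827 and between -2.92 and -2.58 in A549, where 2 of 4 arrays were well above background, and its log2 difference was -2.14 ± 0.20 (limma, adjusted p = 0.00103). MMP1, the interstitial collagenase, was at -1.73 and -1.56 in HCC827 and not well above background in A549, which made it at least 2.37-fold higher in HCC827 (measured log2 difference -1.68, limma adjusted p = 0.00145).

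Among inhibitors, TIMP4 was at least 32.6-fold higher in A549, at 2.08 to 2.30, and was not well above background in HCC827 mock cells, at -2.55 and -3.46 (measured log2 difference 5.14, limma adjusted p = 0.000261). TIMP1 was 2.73-fold higher in A549, at 4.19 to 4.50 against 2.86 and 2.91 (log2 difference 1.45 ± 0.16, limma adjusted p = 0.00206). TIMP2 gave 0.23 ± 0.20 (limma, adjusted p = 0.376).

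ADAM12, a sheddase of muscle, placenta and tumours, was at least 4.22-fold higher in A549, at -1.50 to -0.84, since HCC827 mock cells, at -5.12 and -5.16, were not well above background. ADAM19 was at least 9.46-fold higher in A549, where mock replicate 3 at 1.50 was the highest of values that otherwise ran from -1.04 to -0.50. Without that replicate it was at least 5.64-fold higher, and without either HCC827 mock replicate its call was lost (limma, adjusted p = 0.0820 and 0.0762). ADAM10 and ADAM15 passed the adjusted p under 2-fold with higher values in A549, and ADAM17 with higher values in HCC827.

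ADAMTS10, a protease of fibrillin microfibrils, was at least 12.0-fold higher in A549, at -0.13 to 0.68 against -4.08 and -4.53, and ADAMTS9 was 3.12-fold higher there. ADAMTS16 was the other way round, at -2.50 and -2.08 in HCC827 and not well above background in A549, at least 1.51-fold higher in HCC827. ADAMTSL5 was 3.91-fold higher in A549 by its brightest probe (limma, adjusted p = 0.0325), but its other probe gave a log2 difference of -0.86 with an adjusted p of 0.0316, so its direction is not settled. ADAMTS7, which has close pseudogene copies, was between 6.22 and 7.35 on mock arrays apart from A549 mock replicate 3 at 8.30, and gave 0.95 ± 0.60 (limma, adjusted p = 0.252).

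**Figure D5:**
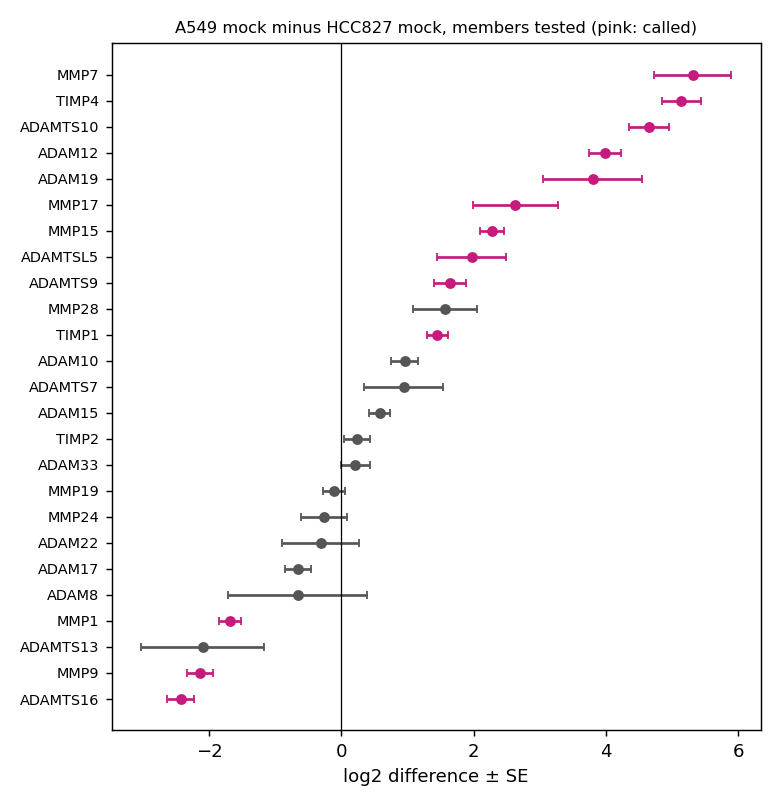
Log2 difference between A549 mock and HCC827 mock cells for the 25 members tested, with the SE from limma as the bar. Pink points were called, 10 to the right (higher in A549) and 3 to the left. MMP7 and TIMP4 lie farthest to the right.

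Genes that activate, inhibit, guide or are cut by these proteases were followed in 6 lists. Of all genes tested, 7.94% were called in A549 and 1.07% in HCC827. For counts at an unadjusted p under 0.05, here and above, the share of all genes was not computed, so they cannot be set against it. Among activators and surface partners of MMPs, 1 of 11 tested was lower in A549 TRIM58-WT and none higher, with a list median of -0.17. It was PCSK5, a convertase related to furin, at -1.29, -1.14, -0.99 and -0.72 on mock arrays and at -2.30, -3.69 and -2.76 on TRIM58-WT arrays (log2 difference -1.95 ± 0.37, limma adjusted p = 0.0279). Of the TRIM58-WT arrays only the first was well above background, so PCSK5 entered the test only through the mock arrays, where it is high. In HCC827 limma called 0 of 10, with 4 at an unadjusted p under 0.05 (median 0.18).

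Other inhibitors held the 1 pathway gene called in both lines. TFPI2, a secreted inhibitor of plasmin and other serine proteases, was at 6.19 to 6.71 on A549 mock arrays and at 5.67, 4.34 and 4.30 on TRIM58-WT arrays (log2 difference -1.74 ± 0.40, limma adjusted p = 0.0475). In HCC827 it was at 2.21 and 2.26 on mock arrays and at 0.65 and 0.83 on TRIM58-WT arrays (-1.50 ± 0.14, limma adjusted p = 0.0421). SPOCK1, a matrix proteoglycan that inhibits some proteases, was between -4.42 and -4.08 on the first 3 A549 mock arrays, at -0.40 on mock replicate 3 and between 1.56 and 2.17 on TRIM58-WT arrays (4.89 ± 1.04, limma adjusted p = 0.0382). On those first 3 mock arrays SPOCK1 was not well above background, so it entered the test only through the TRIM58-WT arrays, where it is high. TFPI2 and SPOCK1 were 2 of 4 genes tested in A549 and TFPI2 was 1 of 4 in HCC827, with list medians of 0.20 and 0.37.

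Of 9 partners of ADAM10 and ADAM17, 1 was higher in A549 TRIM58-WT and limma called 0 of 9 in HCC827, with 2 at an unadjusted p under 0.05 (medians 0.19 and 0.13). It was TSPAN5, a tetraspanin that carries ADAM10 through the cell, at -2.77, -2.31, -2.04 and -0.58 on mock arrays and at 1.76, 1.68 and 1.47 on TRIM58-WT arrays (3.35 ± 0.49, limma adjusted p = 0.0130). Its change differed between the lines by 3.25 ± 0.70 (limma, adjusted p = 0.0438).

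Among surface proteins cut by ADAMs, 2 of 17 tested were called higher and 3 lower in A549 TRIM58-WT, with a median of -0.12. Of all genes tested there, 3.89% were called higher and 4.05% lower. AREG, or amphiregulin, an EGF receptor ligand released by ADAM17, was between 4.56 and 4.66 on mock arrays and at 1.95, 2.81 and 2.59 on TRIM58-WT arrays (-2.15 ± 0.25, limma adjusted p = 0.00658). N-cadherin (CDH2), cut by ADAM10, was between 1.18 and 1.37 on the first 3 mock arrays, at 3.60 on mock replicate 3 and between 4.71 and 4.84 on TRIM58-WT arrays (2.72 ± 0.62, limma adjusted p = 0.0472). CXCL16, a membrane chemokine cut by ADAM10, was lower too (-1.80 ± 0.26, limma adjusted p = 0.0125). In HCC827 1 of 21 was called, ERBB4, a receptor cut by ADAM17, at -2.24 and -2.63 on mock arrays and not well above background on TRIM58-WT arrays, so at least 1.91-fold lower (limma, adjusted p = 0.0375), with a list median of 0.06.

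Of the proteins cut by ADAMTS proteases or needed for ADAMTS secretion, limma called 0 of 4 tested in A549, with 1 at an unadjusted p under 0.05, and 1 of 3 in HCC827 (medians 0.11 and 0.02). The latter was VCAN, or versican, a proteoglycan cut by ADAMTS9 among others, at 1.30 and 1.13 on mock arrays and at -0.41 and -0.39 on TRIM58-WT arrays (-1.61 ± 0.14, limma adjusted p = 0.0360). AP-1 and ETS factors, which bind many MMP promoters, had 0 of 9 called in A549 and 0 of 11 in HCC827 by limma, with 3 and 5 at an unadjusted p under 0.05 and medians of 0.46 and 0.43.

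Of 6 epithelial markers tested in A549, EPCAM, KRT8 and KRT19 were called lower on arrays labelled TRIM58-WT and none higher. Of all genes tested in A549, 4.05% were called lower. EPCAM and KRT19 entered the test only through the mock arrays, where they are high. CDH1, KRT7 and KRT18 were well above background on all 11 arrays and were not called. The summed relative signal of the epithelial list overlapped, at 1510 to 2300 on mock arrays and 1100 to 1720 on TRIM58-WT arrays. KRT19, an epithelial keratin, was between 6.11 and 7.52 on mock arrays and below the mark on all TRIM58-WT arrays, at least 723-fold lower (limma, adjusted p = 0.000151). Of the 9 fibroblast and mesenchyme markers, COL1A1 was called higher on A549 TRIM58-WT arrays, at least 7.13-fold. It was well above background on no A549 mock array and entered the test only through the TRIM58-WT arrays, where it is high. VIM was well above background on all 11 arrays, and LUM was so on 3 A549 mock arrays and no other array. COL1A2, COL3A1, DCN, PDGFRA, PDGFRB and THY1 were well above background on no array. The summed relative signal of this list was 26.4 to 178 on mock arrays and 92.8 to 365 on TRIM58-WT arrays. Of 2 leukocyte markers tested in A549, CD14 was called lower on TRIM58-WT arrays (-3.06 ± 0.23, limma adjusted p = 0.00154) and CD68, well above background on all 11 arrays, was not. CD14 entered the test only through the mock arrays, where it is high. CD3E and ITGAM were well above background on no array, and the summed relative signal of the leukocyte list was 3.87 to 4.98 on mock arrays and 1.71 to 2.13 on TRIM58-WT arrays. The part of these marker changes in the values of MMP7, TIMP2 and ADAMTS8 was not tested. In HCC827 limma called 0 of 8 epithelial markers tested, with 4 at an unadjusted p under 0.05.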

How the data were processed

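RNA was hybridised to Agilent 1-colour arrays. The authors extracted spot intensities with Agilent Feature Extraction, which subtracted background and spatial trends without scaling between arrays (version 11.5.1.1 per the file headers, 10.7 in the submitters' processing notes). A log2 table by the authors was deposited too. It matched log2 signal minus the 75th percentile, less a baseline of each probe whose origin is not known, within 0.01 for 95.5% of values, and its column medians ran from -0.12 to 0.46. It served as an alternative.

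Here, control and outlier spots were left out, spots of a probe were averaged, log2 was taken and the 75th percentile over 42405 probes was subtracted (R 4.3.3, limma 3.58.1), with 28 probe values missing. RefSeq accessions named 27241 probes. Each gene was read from its brightest probe over the 4 group means. Groups came from the labels. Contrasts were fitted with lmFit and eBayes, per line, between mock groups and over both lines, and p-values were adjusted over all probes tested. The number of arrays limits the precision. A probe below background on every array of a group was given a bound against the lowest signal well above background.

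The members and lists were chosen with earlier results of these data known. Named with values were all members called, TIMP1 to TIMP4, MMP2, MMP9, MMP14, ADAM10 and ADAM17, and up to 3 called genes of each list. ADAM8, ADAMTS13, ADAM19, ADAM23, ADAMTS7 and MMP10 were added after their values were seen. Alternatives covered scaling, background correction (normexp on the median spot signal, offset 50), filters, outlier spots, probe choice, blocks, Welch's t-test and each replicate left out. The study's methods list Welch's t-test among their general statistics and name no test for the arrays. Test steps were checked on simulated data. Replicate numbers were not taken as pairs: deviations of same-numbered A549 replicates correlated at 0.56, -0.48 and 0.56, and those of HCC827 at 0.10.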

Additional observations from a re-analysis of the deposited data

How the results depend on the processing

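Differences called for members by the brightest probe kept their sign under every alternative that gave a value for that probe, while the other probe of ADAMTSL5 had the opposite sign between mock cells (-0.86). In A549, where 3 members were called, the count was 1 with no filter on dim probes (MMP2), 0 by the methods' t-test after adjustment (6 at an unadjusted p under 0.05), 5 with all 4 groups in one fit, with slide as a block or with mock arrays 1-1 and 1-2 separate, and 2 with the replicate block, which lost ADAMTS8 (adjusted p = 0.0545 by limma). It was 9 without mock 3 and TRIM58-WT 1, 0 with TRIM58-WT 2 and 3 merged, and 0 to 5 with 1 replicate left out. In HCC827, the count of 1 fell to 0 under normexp, the authors' log2 table and one fit of all groups. Of all probes, 0.884% were called in the main HCC827 fit and 0.537%, 0.675% and 0.818% in these fits. The count also fell to 0 with no filter, by the adjusted t-test and with the replicate block, where no probe of any gene was called. The call of ADAMTS9 was lost with any 1 replicate left out, but such fits leave 1 replicate in a group. Between mock cells, 13 became 7 under normexp, 5 with every array above background and 5 by the adjusted t-test. The share of all probes called between mock cells moved too, from 30.3% to 15.6%, 23.2% and 15.4%. For the difference between lines, 0 became 1 after the median shift (MMP7), 1 after quantile normalization (MMP1), 2 with slide as a block, 14 without both A549 arrays and 0 to 4 with 1 replicate left out, and the replicate block left it at 0. The share of all probes called moved in the same fits, from 6.92% in A549 to between 1.74% and 12.1% with 1 replicate left out, and from 3.86% for the difference between lines to between 1.06% and 10.5%. For the difference between lines the share was 2.55% after the median shift, 4.3% after quantile normalization and 1.56% with the replicate block. Fits with slide as a block also took mock arrays 1-1 and 1-2, of the same control cell, as separate replicates. The causes were not tested. With 1 replicate left in a group, it is assumed to vary like the others. Signals near background limit most members.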
